A study of Homo sapiens with 18 samples.

Results

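The comparison is between 2 diploid clones of the RPE1 line, clone 3 (2N-3) and clone 1 (2N-1), chosen by their labels, and it covers 6 of the 18 libraries of the series: 2N-3 libraries A, B and C, and 2N-1 libraries A, B and C. RPE1 is a human retinal pigment epithelium line immortalised with telomerase. Per the labels, growing cells were held in the Aurora kinase inhibitor ZM447439 (2.5 uM, 72 h), were left for weeks until dividing cultures returned, and were then cloned from single cells whose DNA content was read by FACS. Both diploid clones therefore went through the drug, as did the other 4 clones of the series (4N-3, 4N-1, 2N-2 and 4N-2), and each diploid clone came off the plates that gave the tetraploid clone of its number. The clones 2N-2 and 4N-2 were in addition labelled with Hoechst and subcloned. All were grown in DMEM with fetal bovine serum. Messenger RNA was sequenced from 3 biological replicates of each clone. Each group is 1 clone, so a difference between them is a difference between these 2 clones, and p-values measure only the spread between libraries of a clone.

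A culture grown from a single cell passes on the chromosome content and the silencing state of its founder, and clones of a line can differ in which developmental, matrix and signalling genes they transcribe. Retinal pigment epithelium nourishes the photoreceptors and recycles visual pigment. RPE1 cells in culture are flat, divide quickly and hold few of the pigment genes of that tissue.

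Library A of 2N-3 stood apart from the other 17 libraries before any gene was tested. It lay at 55.6 on the second principal component, where the other 17 lay between -9.83 and 0.54. The SD of its log2 differences was 0.596 from library B and 0.599 from library C of the same clone, against 0.200 between B and C. The difference ran with the length of the transcript: relative to B and C, the median gene was 0.66 higher (log2) in library A in the bin of the shortest transcripts (median 1191 bases) and stood at -0.34 in the bin of the longest (median 6425 bases), whereas B minus C stayed between -0.0163 and -0.0085 in all 5 bins. RF00100, a small noncoding RNA, had 13.3 reads per M (reads over the size of the library in mega reads) in library A, against 0.75 in B and 0.957 in C, and ZBED6, a gene without introns of its own inside ZC3H11A, had 2.02 reads per M in A, against 42.2 in B and 38.9 in C. Counts over all genes, and the changes of most genes described in full, are also given without this library. Reads in genes numbered 37.5, 41.4 and 43.0 M in libraries A, B and C of 2N-3, and 41.9, 39.8 and 37.2 M in those of 2N-1. Of the 22 pigment epithelium markers, 15 could be tested on reads and none rose or fell; their summed level was 296 to 323 reads per M in 2N-3 libraries and 347 to 370 reads per M in 2N-1 libraries. PAX6 and OTX2, transcription factors of the eye, were present in both clones, with 70.6 to 89.9 reads per M of PAX6 in 2N-3 and 101 to 109 reads per M in 2N-1, and 26.7 to 36.6 reads per M of OTX2 in 2N-3 and 41.6 to 46.0 reads per M in 2N-1. RPE65, the isomerase of the visual cycle and a defining gene of the tissue, had 13 reads in the 3 libraries of 2N-3 and 15 in those of 2N-1, and TYR, the pigment-forming tyrosinase, had 2 and 2.

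**Figure D1:**
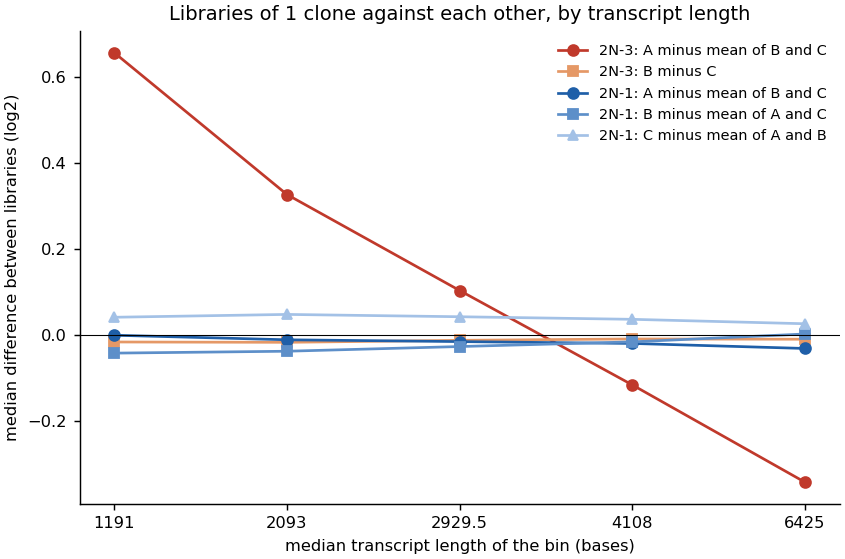
Median difference between libraries of the same clone (y axis, log2) in 5 bins of genes by transcript length (x axis, median length of the bin in bases); lines are libraries of 2N-3 (red and orange) and 2N-1 (blue). The line of library A of 2N-3 runs from 0.66 in the shortest bin to -0.34 in the longest, and the other lines stay near 0.

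On the deposited scale of reads per kilobase of gene per M reads (RPKM), 12 of the 9704 tested genes were called between the clones (0.124%), and all 12 were higher in 2N-3; with the 6 libraries fitted alone 2 were called, and leaving out library C of 2N-3 gave 22. To be called, a gene needed both an adjusted p under 0.05 and 2 times the level of the other clone (limma on log2(RPKM + 0.5), Benjamini-Hochberg adjustment over all tested genes). At the adjusted p alone 58 genes rose (0.598%) and 21 fell (0.216%), and 1641 had an unadjusted p below 0.05. No gene was called lower by limma on this scale, whereas 58 were on recovered reads, as given below. Without library A of 2N-3, 11 of 9640 genes were called (0.114%), again all higher, 8 of them shared with the 12, and 70 rose (0.726%) and 47 fell (0.488%). In bulk RNA, fewer cells that carry a transcript and less transcript per cell cannot be told apart.

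The RPKM calls were led by CCL2, the chemokine that draws monocytes into tissue (chr17:34255218-34257203, GENCODE v29 on GRCh38, as are all gene positions here). It had 5.37, 4.16 and 3.83 RPKM in libraries A, B and C of 2N-3, against 0 in all 3 libraries of 2N-1, a change of 3.30 ± 0.20 (SE) on the log2(RPKM + 0.5) scale with an adjusted p of 1.2e-06. EBP, the sterol isomerase of late cholesterol synthesis, had 9.19, 5.19 and 5.19 RPKM in 2N-3, against 1.46, 1.57 and 1.63 RPKM in 2N-1 (log2 change 1.73 ± 0.15, adjusted p = 2.3e-05; 1.47 without library A). Library A was the highest, and the groups did not overlap with or without it. With all 6 libraries, 1860 of the 9704 genes tested on RPKM did not overlap between the clones (19.2%), and the share without library A was not counted. MDK, the heparin-binding growth factor midkine, had 4.79, 2.73 and 2.32 RPKM in 2N-3, against 0.803, 0.808 and 0.714 RPKM in 2N-1 (1.51 ± 0.16, adjusted p = 0.00012; 1.24 without A). MFSD3, a member of the major facilitator family of carriers, had 4.81, 2.53 and 2.31 RPKM in 2N-3, against 1.08, 0.732 and 0.835 RPKM in 2N-1 (1.37 ± 0.17, adjusted p = 0.00074; 1.09 without A). FOXS1, a forkhead transcription factor, had 19.1, 11.02 and 10.3 RPKM in 2N-3, against 5.96, 4.77 and 5.91 RPKM in 2N-1 (1.16 ± 0.21, adjusted p = 0.013). Its change was 0.89 without library A, under the 2-fold limit, with an adjusted p of 0.023. In all 5 of these genes library A was the highest of the 3 libraries of 2N-3. The protocadherin PCDHB5, BHMT2, which methylates homocysteine, and REC8, a meiotic cohesin subunit, were also called, with changes of 1.26, 1.06 and 1.06, and in PCDHB5 and BHMT2 library A was the lowest. REC8 had a change of 0.94 without library A. The other 4 calls were the pseudogenes SNX18P13 and SNX18P26, whose reads may be shared with near-identical copies, and 2 identifiers without an annotated name.

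The deposited values divide by the genomic span of a gene, introns included, so that many genes with ample reads fall under the minimum of 1 RPKM. Whole reads were recovered from the values and tested with limma-voom, and all 12 RPKM calls were called there too. Of 23397 genes tested on reads, 214 were called (0.915%): 156 were higher in 2N-3 (0.667%) and 58 lower (0.248%). With the 6 libraries fitted alone 84 were called. At the adjusted p alone 269 rose (1.15%) and 158 fell (0.675%), and 4256 had an unadjusted p below 0.05. With C of 2N-3 left out, 471 rose and 422 fell; 153 and 69 did with A of 2N-1 left out, and 158 and 66 with B of 2N-1 left out. Without library A of 2N-3, 177 of 23322 genes were called (0.759%), 134 higher and 43 lower; 155 of them were among the 214. Of the other calls with library A, 12 could not be tested without it and 47 were tested and not called, and none changed direction. The called genes were mostly of low level: their median was 1.56 reads per M in the higher clone, against 8.79 reads per M over all tested genes, and 31 of the 214 passed the RPKM minimum (14.5%, against 40.6% of all tested genes). Among them 165 were protein-coding, and 49 differed by 8-fold or more, 40 higher in 2N-3 and 9 lower. All changes below are log2 changes from this fit of reads, with adjusted p-values over all 23397 genes, unless another scale is named. Without library A the counts of members that rose and fell, given below by list, were the same except in 4 lists: matrix genes (4 and 2), senescence cytokines (2 and 0), stress response genes (0 and 2), and the EGF receptor family and ligands, where TGFA alone rose and none had with library A. Equal counts need not be the same genes.

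**Figure D2:**
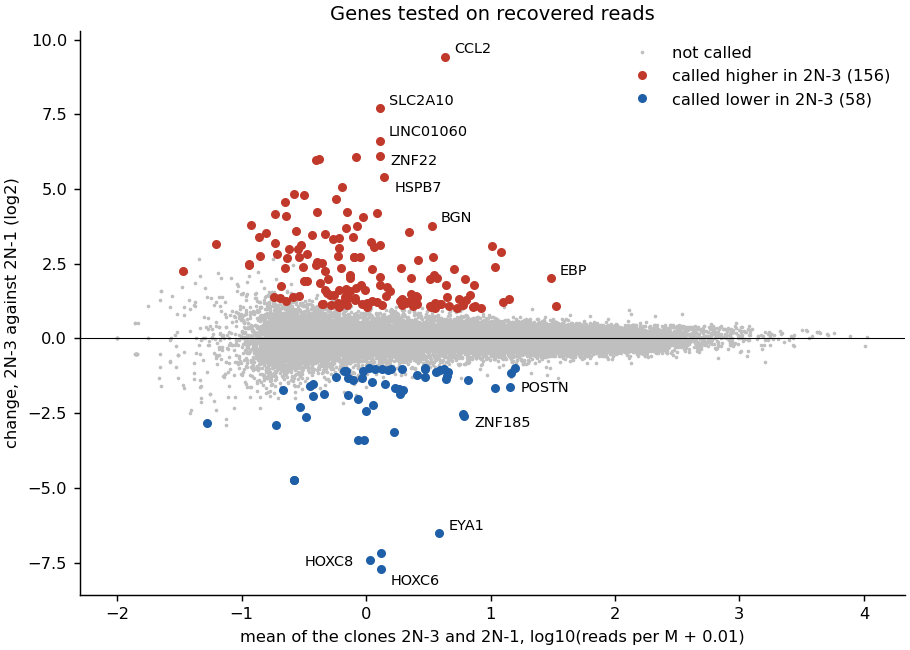
Log2 change of 2N-3 against 2N-1 (y axis) by the mean level of the 2 clones (x axis, log10 of reads per M plus 0.01) for the genes tested on recovered reads; red and blue points are the 156 genes called higher and the 58 called lower. Most called genes lie in the left part of the plot, at low levels, and those of high level lie near 0.

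Several genes were read in 2N-3 and at or near 0 in 2N-1. CCL2 had 372, 341 and 323 reads in libraries A, B and C of 2N-3, against 0 reads in every library of 2N-1. With a floor of 3 reads over the 3 libraries of 2N-1, it was at least 344-fold higher in 2N-3 (adjusted p = 4.2e-06). SLC2A10, which encodes the glucose transporter GLUT10 (chr20:46709487-46736347, plus strand), had 67, 123 and 132 reads in 2N-3, or 1.86, 2.88 and 3.01 reads per M, against 0 reads in 2N-1, and was at least 107-fold higher (adjusted p = 3.1e-07). Every other clone of the series read SLC2A10, at means of 5.21 to 10.0 reads per M, so that 2N-1 alone was at 0. The zinc finger gene ZNF334, on the other strand 195928 bases away, was named after its values were seen. It had 39, 75 and 89 reads in 2N-3, against 3, 0 and 0 reads in 2N-1, a ratio of 67.4 with a 95% exact interval of 22.7 to 330 that covers counting error only. Here 2N-3 was the clone that stood out, since the other 4 clones had means of 0 to 0.33 reads per M. ZNF22, another zinc finger gene, had 85, 102 and 125 reads in 2N-3, against 2, 2 and 0 reads in 2N-1, a ratio of 77.7 (30.1 to 287; adjusted p = 1.8e-05). The other 4 clones had means of 0.0284 to 0.0587 reads per M of ZNF22, against 2.53 ± 0.28 (SD, n = 3) in 2N-3, and without library A the gene fell under the minimum of reads and was not tested. ZNF22 reached that minimum in the libraries of 2N-3 only. It was tested only because that clone was high, so its adjusted p cannot serve as support.

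The promoters of SLC2A10, ZNF334, ZNF22 and HOXC5, the last lower in 2N-3 and described further on, are shown because the clones differ in whether the gene is read at all, and that of EBP because 2N-1 was the lowest clone of the series. Each is the window of 250 bases before to 50 after the start, from RefSeq (GRCh38.p14), in the direction of the gene, with every CG pair in capitals.
SLC2A10: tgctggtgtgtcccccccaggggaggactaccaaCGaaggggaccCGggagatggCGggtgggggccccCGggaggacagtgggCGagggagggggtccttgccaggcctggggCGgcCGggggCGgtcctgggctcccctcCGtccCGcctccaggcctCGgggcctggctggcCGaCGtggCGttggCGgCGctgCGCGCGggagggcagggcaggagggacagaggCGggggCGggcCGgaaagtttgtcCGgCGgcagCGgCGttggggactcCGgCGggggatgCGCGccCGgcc
ZNF334: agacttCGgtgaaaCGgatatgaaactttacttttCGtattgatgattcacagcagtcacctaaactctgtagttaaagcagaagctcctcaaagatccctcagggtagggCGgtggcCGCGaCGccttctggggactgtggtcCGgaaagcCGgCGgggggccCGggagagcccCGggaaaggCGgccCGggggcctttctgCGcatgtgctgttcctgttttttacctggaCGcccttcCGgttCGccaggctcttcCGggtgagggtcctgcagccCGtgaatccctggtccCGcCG
ZNF22: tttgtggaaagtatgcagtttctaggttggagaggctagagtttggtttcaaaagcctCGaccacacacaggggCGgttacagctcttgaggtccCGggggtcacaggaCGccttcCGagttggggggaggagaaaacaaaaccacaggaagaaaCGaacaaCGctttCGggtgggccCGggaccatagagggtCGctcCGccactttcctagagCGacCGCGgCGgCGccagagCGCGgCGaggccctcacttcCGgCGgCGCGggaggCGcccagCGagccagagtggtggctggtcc
EBP: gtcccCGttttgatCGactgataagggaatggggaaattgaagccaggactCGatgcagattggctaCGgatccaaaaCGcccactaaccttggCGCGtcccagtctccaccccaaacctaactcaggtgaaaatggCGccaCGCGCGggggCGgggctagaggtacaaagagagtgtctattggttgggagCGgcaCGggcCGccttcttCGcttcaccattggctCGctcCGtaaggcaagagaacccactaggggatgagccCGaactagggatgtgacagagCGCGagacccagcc
HOXC5: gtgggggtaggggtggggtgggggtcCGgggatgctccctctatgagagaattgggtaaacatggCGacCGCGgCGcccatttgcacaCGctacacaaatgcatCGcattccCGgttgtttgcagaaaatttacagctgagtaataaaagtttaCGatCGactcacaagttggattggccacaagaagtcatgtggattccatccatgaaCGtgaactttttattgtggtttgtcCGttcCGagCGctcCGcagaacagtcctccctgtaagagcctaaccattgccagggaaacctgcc
The windows lie at chr20:46709399-46709698 (plus strand), chr20:46513510-46513809 (minus), chr10:45000673-45000972 (plus), chrX:48521558-48521857 (plus) and chr12:54016638-54016937 (plus), and the last is also the RefSeq window of HOXC4. The motif counted was CG, which reads the same on both strands. SLC2A10 held 31 CG pairs, a number reached by 20.7% of the 35116 promoters of this length. ZNF22 held 25 (32% of promoters hold as many), ZNF334 22 (37.7%), EBP 21 (39.5%) and HOXC5 15 (48.9%), and the median promoter held 14. None of the 5 windows held TATAAA on either strand, which 11.5% of promoters hold.

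LINC01060, a long noncoding RNA, had 70, 124 and 118 reads in 2N-3, against 0, 4 and 0 reads in 2N-1 (ratio 77.7, interval 30.1 to 287; adjusted p = 0.00017). It was read at means of 8.43 and 9.68 reads per M in 4N-3 and 4N-2, and at 0.0219 and 0.0262 reads per M in 4N-1 and 2N-2. HSPB7, a small heat shock protein of heart and muscle, had 3.10, 2.65 and 2.39 reads per M in 2N-3, against 0.0913, 0.0482 and 0.0271 reads per M in 2N-1 (change 5.40 ± 0.55, adjusted p = 1e-05; 5.30 without A). GALC, the lysosomal galactosylceramidase, had 3.74, 4.59 and 3.80 reads per M in 2N-3, against 0.320, 0.410 and 0.271 reads per M in 2N-1 (3.56 ± 0.25, adjusted p = 1.4e-07; 3.61 without A). In both genes the libraries of the 2 clones were far apart, and 2N-1 was not alone at the bottom for GALC, since 4N-2 had a mean of 0.274 reads per M. EBP had 69.5, 39.2 and 39.3 reads per M in 2N-3, against 11.1, 11.9 and 12.3 reads per M in 2N-1, and 33.8 to 63.0 reads per M as means of the other 4 clones. The 2N-1 clone was thus the low one of the 6 for EBP, with a change of 2.01 ± 0.17 (adjusted p = 1.1e-06) that was 1.74 without library A. BHMT2 had 13.6, 20.8 and 20.1 reads per M in 2N-3, against 3.45, 3.40 and 3.49 reads per M in 2N-1 (2.38 ± 0.15, adjusted p = 7.4e-08; 2.56 without A), and the other 4 clones had means of 16.2 to 27.4 reads per M. The neighbouring BHMT and DMGDH, both enzymes of betaine and dimethylglycine metabolism and both picked after their values were seen, were called in the same direction, with changes of 2.02 and 2.12. DMGDH spans BHMT2 on the other strand, and the 872 reads of DMGDH against 2680 of BHMT2 in the 6 libraries show that reads of the pair were not all counted in both. A pair of identifiers without a name in the annotation also rose. Neither was matched to a position, so shared reads could not be checked, and these need not be separate rises. ENSG00000232274 had 491, 947 and 869 reads in 2N-3, against 88, 90 and 84 reads in 2N-1 (3.08 ± 0.22). ENSG00000203849 had 540, 1058 and 1100 reads in 2N-3, against 125, 135 and 89 reads in 2N-1 (2.90 ± 0.22).

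**Figure D3:**
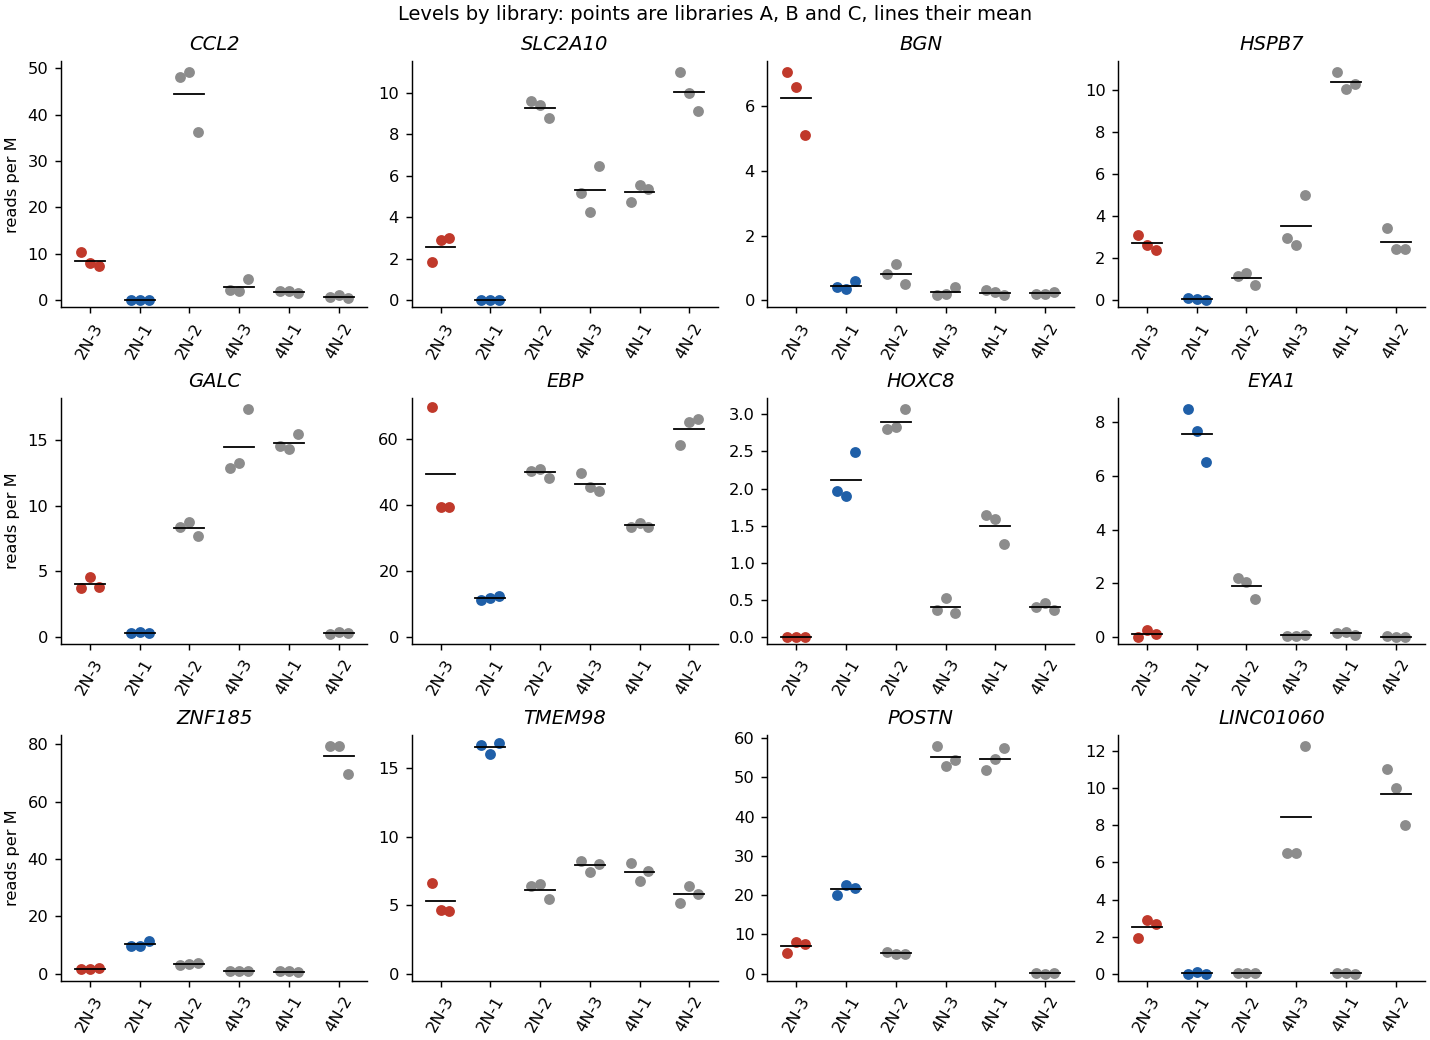
Level of 12 genes in each library (y axis, reads per M), by clone (x axis); points are libraries A, B and C, bars their mean, with 2N-3 in red, 2N-1 in blue and the other 4 clones in grey. For SLC2A10 and EBP 2N-1 is the lowest clone, for BGN 2N-3 is the highest, and for HOXC8 2N-3 is the clone at 0.

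Genes lower in 2N-3 included a stretch of the HOXC cluster, whose genes set position along the body axis. HOXC8 (chr12:54009106-54012362, plus strand) had 0 reads in every library of 2N-3, against 86, 79 and 92 reads in 2N-1, or 1.96, 1.90 and 2.49 reads per M, and was at least 86.0-fold lower (adjusted p = 2.3e-08). It was read in all 4 other clones, with means of 0.405 reads per M in 4N-2, 0.409 in 4N-3, 1.49 in 4N-1 and 2.90 in 2N-2. HOXC4 and HOXC5, which share their counted reads, had 1, 0 and 0 reads in 2N-3, against 13, 19 and 27 reads in 2N-1, a ratio of 0.0169 (95% exact interval 0.00042 to 0.0978; adjusted p = 0.0076 for HOXC4). HOXC6 had 0 reads in 2N-3, against 99, 99 and 119 reads in 2N-1. Those reads equalled the sum of HOXC8 and HOXC4 within 1 read in each of the 6 libraries, so none can be assigned to HOXC6 itself, and AC012531.2, which spans the same stretch, had the same reads in 2N-1. Of 39 HOX genes 17 were tested, and 7 fell and 2 rose, against 0.675% and 1.15% of all tested genes. Beside the 4 HOXC entries, which count the same reads several times, HOXB3, HOXB5 and HOXB6 fell by 0.99, 0.99 and 1.00, and HOXB7 and HOXB9 rose by 0.95 and 0.70. These 5 HOXB genes were named after their values were seen. HOXB6 overlaps HOXB3 on the same strand and may share its reads, so their falls need not be separate. HOXB3 had 20.2, 20.3 and 19.8 reads per M in 2N-3, against 38.9, 40.6 and 40.3 reads per M in 2N-1. HOXB7 had 7.59, 7.19 and 7.27 reads per M in 2N-3, against 3.54, 3.37 and 4.68 reads per M in 2N-1. Neither pair of groups overlapped, which was also so for 4640 of the 23397 genes tested on reads (19.8%).

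EYA1, a transcriptional cofactor in eye and ear development, had 0, 0.258 and 0.114 reads per M in 2N-3, against 8.49, 7.69 and 6.52 reads per M in 2N-1 (-6.53 ± 0.60, adjusted p = 3.6e-06; -5.37 without library A). Here 2N-1 was the high clone, since the other 4 clones had means of 0.00845 to 1.89 reads per M. ABCA8, a lipid transporter, had 1.05, 2.91 and 1.55 reads per M in 2N-3, against 10.6, 10.7 and 9.99 reads per M in 2N-1 (-2.61 ± 0.29, adjusted p = 2.9e-05; -2.30 without A). ZNF185, an actin-binding protein with a LIM domain, had 1.55, 1.78 and 1.91 reads per M in 2N-3, against 9.70, 9.64 and 11.4 reads per M in 2N-1 (-2.53 ± 0.14, adjusted p = 2.3e-08; -2.46 without A). TMEM98, a membrane protein tied to eye size, had 6.62, 4.66 and 4.60 reads per M in 2N-3, against 16.7, 16.0 and 16.8 reads per M in 2N-1 (-1.67 ± 0.13, adjusted p = 3.1e-07; -1.83 without A), and the other 4 clones had means of 5.79 to 7.90 reads per M. All 4 of these genes kept their libraries apart, as did 19.8% of all genes tested on reads. VAT1L fell by 3.13, RARRES2, which encodes the attractant chemerin, by 1.87, SULT1C2, a sulfotransferase, by 1.71 and PHACTR1, a regulator of actin and phosphatase 1, by 1.66. The noncoding LINC02360 fell by 3.42. AL049839.2, which overlaps SERPINA5 and SERPINA3 on its strand and may share their reads, fell by 1.73.

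Among genes of the matrix, 2 of 34 tested rose and 2 fell, against 1.15% and 0.675% of all tested genes; without library A 4 rose and 2 fell. The additional 2 were the collagens COL5A2 and COL12A1, at 0.33 and 0.32 without A, and at 0.09 and -0.13 with it. Biglycan, BGN, a small proteoglycan, had 7.06, 6.61 and 5.10 reads per M in 2N-3, against 0.411, 0.361 and 0.595 reads per M in 2N-1 (3.77 ± 0.29, adjusted p = 4.8e-07; 3.68 without A). No other clone had a mean above 0.809 reads per M, so 2N-3 alone was high. Periostin, POSTN, a secreted ligand of integrins, had 5.34, 8.04 and 7.56 reads per M in 2N-3, against 20.02, 22.6 and 21.8 reads per M in 2N-1 (-1.63 ± 0.14, adjusted p = 1.2e-06; -1.46 without A). COL5A1, a fibrillar collagen chain, had 13, 15 and 12 reads in 2N-3, against 1 read in each library of 2N-1, a ratio of 13.3 (4.23 to 67.1; adjusted p = 0.0065). COL1A2, a chain of type I collagen, had 0.166, 0.141 and 0.182 reads per M in 2N-3, against 0.502, 0.410 and 0.650 reads per M in 2N-1 (-1.58, adjusted p = 0.0025). COL1A1, its partner chain, had 63.1, 66.2 and 59.0 reads per M in 2N-3, against 46.3, 47.6 and 44.6 reads per M in 2N-1, and did not pass (0.44, adjusted p = 0.26). Outside that list, the proteoglycan FMOD rose by 2.71, the sulfatase SULF1 by 2.73, the vitamin D hydroxylase CYP24A1 by 3.51, CPEB1, a regulator of translation, by 3.36 and the noncoding AL358335.2 by 3.45. CYP24A1 and AL358335.2 reached the minimum of 10 reads in no library outside 2N-3. They entered the test only through the clone where they are high, so their tests cannot serve as support. COL5A1 missed the threshold without library A or B of 2N-1 (adjusted p = 0.055 and 0.051), and SULF1 without library A or C of 2N-1 (0.071 and 0.075).

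Targets of YAP and TAZ, the factors that the Hippo pathway restrains, rose in 2 of 26 genes and fell in none, against 1.15% and 0.675% of all tested genes. CYR61, a secreted matrix protein, had 486, 398 and 429 reads per M in 2N-3, against 238, 250 and 254 reads per M in 2N-1 (0.82 ± 0.10, adjusted p = 0.00013; 0.74 without A). CTGF, its family member, had 277, 250 and 263 reads per M in 2N-3, against 156, 159 and 158 reads per M in 2N-1 (0.74 ± 0.09, adjusted p = 0.00015; 0.70 without A). The median over the 26 targets was -2e-04, against 0.0016 over all tested genes. Of 16 genes induced by TGF-beta, 2 rose (1.15% of all tested genes did): the anchoring collagen COL7A1, with 170, 174 and 168 reads per M in 2N-3, against 88.1, 92.6 and 84.0 reads per M in 2N-1 (0.95 ± 0.11, adjusted p = 6.1e-05; 0.95 without A), and TGFB1I1, a focal adhesion protein (0.37, adjusted p = 0.044). None of these groups overlapped, against 19.8% of all genes tested on reads without overlap. Of 15 smooth muscle genes 1 rose, again against 1.15% of all, the actin-binding TAGLN, with 245, 131 and 141 reads per M in 2N-3, against 90.1, 95.4 and 98.9 reads per M in 2N-1 (0.81, adjusted p = 0.012; 0.53 without A). The muscle actin ACTA2 changed by 0.05 (adjusted p = 0.87). TGFB1I1 missed the threshold without any 1 library of 2N-1 (adjusted p = 0.097 to 0.21), and TAGLN without library A or B of 2N-1 (0.057 to 0.071).

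Among cytokines and chemokines of senescent cells, 3 of 15 tested genes rose and none fell, against 1.15% and 0.675% of all tested genes, and 2 rose without library A, CCL2 and IL11. Beside CCL2 these were the gp130 cytokine IL11, with 10.3, 6.87 and 7.06 reads per M in 2N-3, against 4.84, 4.10 and 4.74 reads per M in 2N-1 (0.79 ± 0.13, adjusted p = 0.0026; 0.61 without A), and the neutrophil chemokine CXCL8, with 1.08, 0.703 and 0.957 reads per M in 2N-3, against 0.479, 0.482 and 0.217 reads per M in 2N-1 (1.22, adjusted p = 0.038). The libraries of both genes kept apart, as did those of 19.8% of all genes tested on reads. CXCL8 missed the threshold without library A or C of 2N-3 or any 1 library of 2N-1 (adjusted p = 0.053 to 0.18). Of 17 Notch genes 2 rose and none fell, against 1.15% and 0.675% of all tested genes. The ligand DLL3 rose by 2.25 (adjusted p = 0.003) and the target HES1 by 0.66 (adjusted p = 0.023). HES1 missed the threshold without any 1 library of 2N-1 (0.086 to 0.11). Of 28 interferon and antigen presentation genes 1 rose and 1 fell, against 1.15% and 0.675% of all tested genes. HLA-B rose by 0.65 (adjusted p = 0.022; 0.41 without A), a gene whose reads can be shared with HLA-C, and IFI44L fell by 0.58 (adjusted p = 0.032; -0.36 without A). Both missed the threshold without any 1 library of 2N-1 (0.057 to 0.15). Of 15 heat shock genes 2 rose (1.15% of all), the near-identical pair HSPA1A and HSPA1B, whose reads cannot be told apart with certainty, so that the count is in effect of 1 gene. HSPA1A had 71.6, 54.8 and 55.3 reads per M in 2N-3, against 41.3, 41.5 and 42.2 reads per M in 2N-1 (0.53, adjusted p = 0.0045; 0.40 without A).

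In the cholesterol list, 1 of 24 tested genes rose, EBP, and 3 fell, HMGCS1 and INSIG1 among them, against 1.15% and 0.675% of all tested genes. HMGCS1, a synthase of the early pathway, had 205, 266 and 262 reads per M in 2N-3, against 412, 374 and 347 reads per M in 2N-1 (-0.63 ± 0.12, adjusted p = 0.0088; -0.51 without A). INSIG1, a sterol-sensing brake on the pathway, fell by 0.47 (adjusted p = 0.047; 0.074 without library A). In HMGCS1 library A was the lowest of 2N-3, and the groups did not overlap with or without it. With all 6 libraries 19.8% of all genes tested on reads did not overlap, and the share without library A was not counted. HMGCS1 missed the threshold without library A of 2N-1 (adjusted p = 0.071), and INSIG1 without either of A and C of 2N-3 or any 1 library of 2N-1 (0.054 to 0.21). In the stress response list, 1 of 29 tested genes rose, the pseudokinase TRIB3 (0.57, adjusted p = 0.038), and 2 fell, CTH, which makes cysteine (-0.74, adjusted p = 0.012), and SESN2, a sensor of leucine that also belongs to the p53 targets. Over all tested genes 1.15% rose and 0.675% fell, and without library A none of the 29 rose. TRIB3 missed the threshold without library A of 2N-3 or any 1 library of 2N-1 (0.067 to 0.17), and CTH without library A or B of 2N-1 (0.071 to 0.074).

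Of 30 p53 targets, 1 rose and 4 fell, against 1.15% and 0.675% of all tested genes. DDB2, a sensor of ultraviolet damage, had 13.1, 10.7 and 10.7 reads per M in 2N-3, against 7.51, 6.92 and 7.31 reads per M in 2N-1 (0.66 ± 0.10, adjusted p = 0.0011; 0.56 without A). SESN2 had 12.4, 11.5 and 10.5 reads per M in 2N-3, against 15.4, 15.5 and 16.1 reads per M in 2N-1 (-0.46, adjusted p = 0.0056). BTG2, an antiproliferative gene, fell by 0.61 (adjusted p = 0.014), the phosphatase PPM1D by 0.50 (adjusted p = 0.015) and MDM2, the ligase that degrades p53, by 0.34 (adjusted p = 0.024). CDKN1A, the p21 inhibitor of cyclin-dependent kinases, had 141, 115 and 111 reads per M in 2N-3, against 143, 136 and 138 reads per M in 2N-1, and did not pass (-0.19, adjusted p = 0.29). The groups of CDKN1A overlapped through library A. BTG2 missed the threshold without library A of 2N-3 or A or B of 2N-1 (0.054 to 0.076), PPM1D without library B of 2N-3 or any 1 of 2N-1 (0.052 to 0.078), and MDM2 without any 1 of 2N-1 (0.063 to 0.13).

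Among 18 G1 cyclins, kinases and inhibitors 1 rose and 1 fell, against 1.15% and 0.675% of all tested genes. CCND2, which encodes cyclin D2, rose and CDKN1B, the p27 inhibitor, fell. CCND2 had 0.526, 0.609 and 0.342 reads per M in 2N-3, against 0.0457, 0.0964 and 0.0541 reads per M in 2N-1 (2.71 ± 0.44, adjusted p = 0.0019), which is 60 reads against 8 (ratio 7.47, interval 3.56 to 18.1). Both diploid clones were low beside the means of the tetraploid clones, which were 10.9 reads per M in 4N-3, 18.8 in 4N-1 and 21.7 in 4N-2. CDKN1B had 102, 97.7 and 94.1 reads per M in 2N-3, against 121, 119 and 123 reads per M in 2N-1 (-0.31, adjusted p = 0.039). It missed the threshold without any 1 of 5 libraries, all but A of 2N-3 (0.06 to 0.14). CCND1 changed by -0.18 (adjusted p = 0.45), CCND3 by 0.13 (0.61), CDK4 by 0.05 (0.86) and CDK6 by -0.50 (0.16), and none of these passed. No mitosis gene of 41 and no DNA replication gene of 40 rose or fell. Without library A, 37 of the 41 mitosis genes lay above 0 with a median change of 0.09, and 39 of the 40 replication genes lay below 0 with a median of -0.19, and genes of 1 list are not independent of each other. In that fit 49.51% of the 11850 genes that averaged at least 300 reads lay below 0. Some other lists were uneven too, with 28 clustered protocadherins above 0 and 7 below, and 6 cholesterol genes above and 18 below. Proteasome subunits were near even, at 14 and 15. MKI67, the proliferation marker, had 236, 481 and 578 reads per M in 2N-3, against 436, 503 and 603 reads per M in 2N-1 (-0.34, adjusted p = 0.44; 0.05 without A). CCNB1, which encodes cyclin B1, changed by 0.30 (adjusted p = 0.27) and MCM2, a helicase subunit, by -0.18 (0.60).

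Other lists held few or no changes. None of the 18 immediate early factors rose or fell: EGR1 had 53.6, 49.5 and 60.7 reads per M in 2N-3, against 44.0, 32.1 and 21.95 reads per M in 2N-1 (0.78, adjusted p = 0.11), and FOS changed by 0.28 (0.64). None of 21 hypoxia genes, 16 glycolysis genes or 34 lysosome genes passed. For cytosolic ribosomal proteins, 0 of 40 passed, with a median change of 0.35 with library A and 0.01 without it; proteasome subunits and nuclear respiratory genes likewise had medians of 0.20 and 0.31 with A, and -1e-04 and 0.03 without it. The keratin KRT18 had 491, 293 and 283 reads per M in 2N-3, against 269, 261 and 267 reads per M in 2N-1 (0.38, adjusted p = 0.20). Of 35 clustered protocadherins 1 rose and 1 fell, against 1.15% and 0.675% of all tested genes. PCDHB5 rose, with 3.85, 5.86 and 5.79 reads per M in 2N-3, against 1.21, 1.28 and 1.35 reads per M in 2N-1 (1.99 ± 0.19, adjusted p = 6e-06). PCDHB8 fell, with 1.38, 3.91 and 3.39 reads per M in 2N-3, against 5.11, 5.86 and 5.49 reads per M in 2N-1 (-1.02, adjusted p = 0.041; -0.59 without A), and missed the threshold without any 1 library of 2N-1 (0.096 to 0.16). Genes of this cluster are similar in sequence, and reads could be split between them.

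Markers of other cell types were mostly too low to test, and 2 of them fell, against 0.675% of all tested genes. Of 8 fibroblast markers all were tested and none rose or fell, with summed levels of 750 to 793 reads per M in 2N-3 libraries and 718 to 735 reads per M in 2N-1 libraries. Of 7 endothelial markers 4 were tested, and KDR, a receptor of vascular growth factor, fell by 0.80 (adjusted p = 0.023); their sum was 5.18 to 7.01 reads per M in 2N-3 and 8.24 to 8.77 in 2N-1. Of 9 neural markers 4 were tested, and SNAP25, a synaptic fusion protein, fell by 0.76 (adjusted p = 0.02; -0.51 without A); their sum was 171 to 237 reads per M in 2N-3 and 174 to 190 in 2N-1. Both genes missed the threshold without library A or B of 2N-1 (adjusted p = 0.075 to 0.12). Of 9 blood markers 1 was tested and did not pass, and CD3E and HBB had 0 reads in all 6 libraries. KRT5 and KRT14, keratins of surface epithelia, also had 0 reads in all 6. TERT, the gene used to immortalise the line, had 3.88, 3.30 and 3.53 reads per M in 2N-3, against 2.81, 3.25 and 3.19 reads per M in 2N-1 (0.21, adjusted p = 0.35). The nucleoporin gene NUP210 fell by 0.65 (adjusted p = 0.014; -0.43 without A), a call that was lost without library B or C of 2N-1 (0.068 to 0.089), and the melanosome receptor GPR143 changed by -0.11 (adjusted p = 0.70).

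By chromosome, genes of chromosome 12 lay slightly lower in 2N-3 along the whole chromosome. Over the 11850 genes that averaged at least 300 reads, the median change of the 687 genes of chromosome 12 was -0.09 without library A (-0.12 with it), and 562 of them (81.8%) were below 0, against 49.51% over all chromosomes. The medians of the other chromosomes ran from -0.02 to 0.04. In windows of 40 neighbouring genes, all 17 windows of chromosome 12 had a median below 0, from -0.13 to -0.05, and the 10 lowest of all 285 windows were on it. Relative to the mean of the other 4 clones, and to the other chromosomes of the same library, chromosome 12 stood at -0.150, -0.095 and -0.093 in libraries A, B and C of 2N-3, against -0.007, -0.014 and 0.002 in those of 2N-1. The means were -0.11 ± 0.03 in 2N-3 and -0.01 ± 0.01 in 2N-1 (SD, n = 3 each), and a two-sided exact permutation test gave p = 0.1, the smallest that 3 libraries against 3 allow. Chromosome 12 had the lowest median without library A in these same libraries, so the test cannot serve as support. It also compares libraries of 1 clone with those of another. The 12 libraries of the other clones, whose mean is the reference, lay between -0.0217 and 0.0189, near 0 in part by construction. Of 1201 tested genes of chromosome 12, 19 fell and 6 rose, against 0.675% and 1.15% of all tested genes. On that chromosome 7 were called lower and 4 higher (0.916%, against 0.915% of all tested genes). The offset was therefore spread over many genes by less than the 2-fold limit. Of the genes described above, MDM2, CDKN1B and the HOXC entries, which fell, are on chromosome 12. So are CCND2, which was called higher, and CDK4 and KRT18, which did not pass. In 4N-3 against 4N-1 the median of chromosome 12 was 0.01. DNA copy number was not analysed here.

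**Figure D4:**
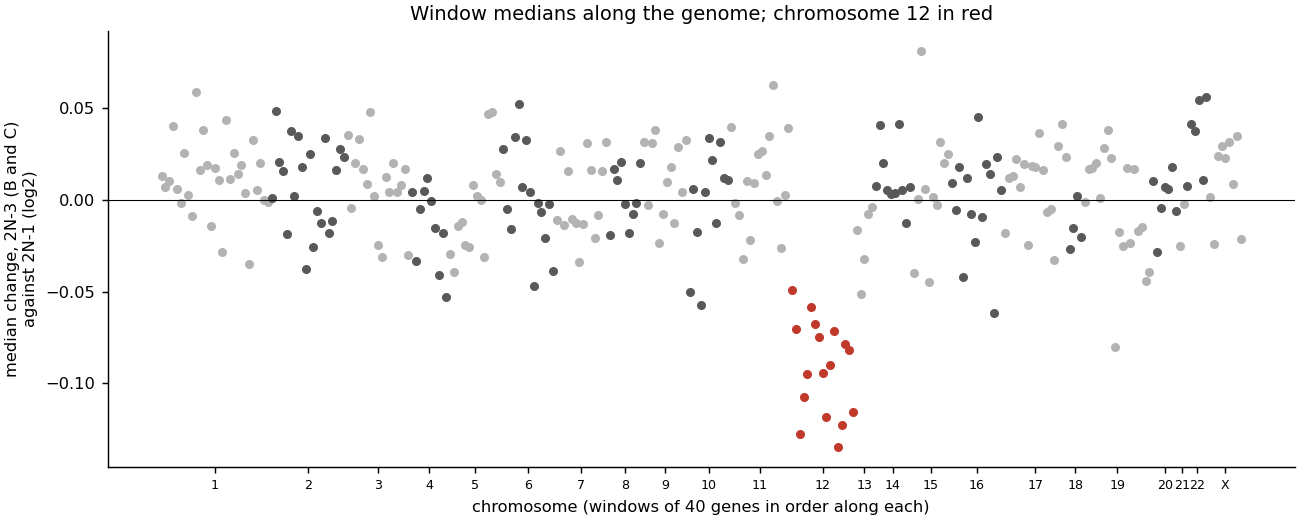
Median log2 change of 2N-3 (libraries B and C) against 2N-1 (y axis) in windows of 40 neighbouring genes along chromosomes 1 to 22 and X (x axis); each point is a window, with chromosome 12 in red. The 17 windows of chromosome 12 lie between -0.13 and -0.05, and the other windows between -0.08 and 0.08.

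On the X chromosome 15 genes were called higher and 4 lower among 778 tested (2.44%), the highest share of the 23 chromosomes, and chromosome 13 followed at 1.78%. EBP and BGN were among the 15 and ZNF185 among the 4. The median change of X was 0.02 without library A, within the range of the other chromosomes.

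Set beside the range of the means of the other 4 clones, the 214 called genes split by which clone stood outside it. For 71 genes, 56 higher in 2N-3 and 15 lower, 2N-1 was outside the range and 2N-3 inside it, as for EBP, BHMT2 and HSPB7. For 47 genes, 36 higher and 11 lower, 2N-3 alone was outside, as for ZNF22, BGN and HOXC8. For 23 genes, 18 higher and 5 lower, both clones were outside, as for SLC2A10, where 2N-1 was at 0 and 2N-3 below the other 4, and TMEM98. For the remaining 73, 46 higher and 27 lower, neither was outside. The split covers called genes only, so it does not show how often either clone stands outside over all tested genes.

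The comparison of 4N-3 against 4N-1, the tetraploid clones of the same numbers, shares no library with 2N-3 against 2N-1. On reads it called 850 genes (3.63%), and 41 of the 214 genes called between the diploid clones were among them, which is 19.2% of the 214 and 4.82% of the 850. Of the 41, 22 had the same direction, 11 higher and 11 lower in clone 3, and 19 the opposite one, 16 of them higher in 2N-3 than in 2N-1 and lower in 4N-3 than in 4N-1. LINC01060 was higher in both comparisons, with 8.19 ± 0.82 (SE) in the tetraploid one. HOXC8, RARRES2 and VAT1L were lower in both, with changes of -1.85, -2.66 and -1.98 between the tetraploid clones. HSPB7, FMOD and SULF1 were higher in 2N-3 than in 2N-1 and lower in 4N-3 than in 4N-1, where they changed by -1.61, -2.78 and -2.17. PHACTR1 went the other way, at -1.66 between the diploid clones and 4.36 between the tetraploid clones. CYR61 and CTGF, which rose between the diploid clones, fell by 1.37 and 1.41 between the tetraploid clones. The difference between the 2 changes was itself called for 1036 of the 23397 genes tested on reads (4.43%) and for 149 of the 214. The 214 were chosen by their change between the diploid clones, which enters the difference. A high share among them is thus in part built in, and the 2 shares cannot be compared. On the RPKM scale it was called for 178 of 9704 genes (1.83%).

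**Figure D5:**
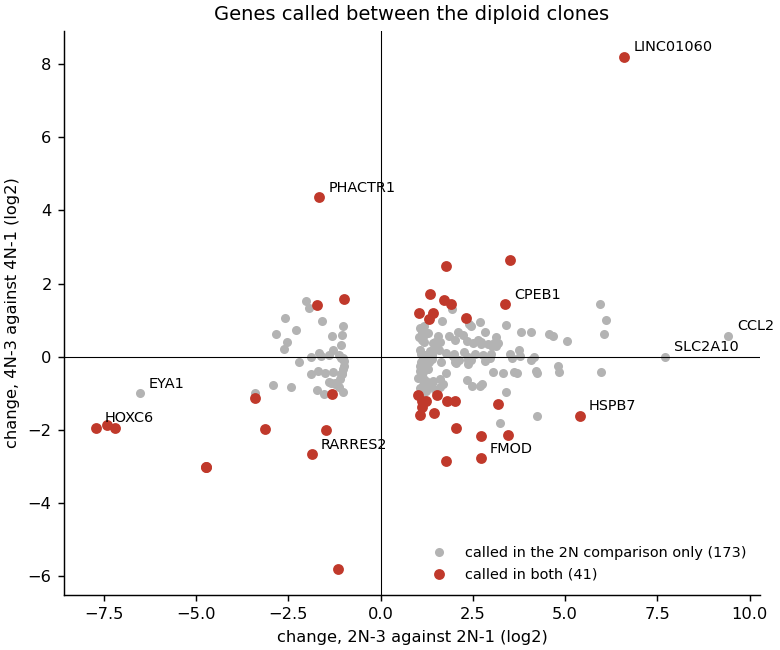
Log2 change of 4N-3 against 4N-1 (y axis) by that of 2N-3 against 2N-1 (x axis) for the 214 genes called between the diploid clones; red points are the 41 called in both comparisons, 22 in the same direction and 19 in opposite directions. Most of the other genes lie near 0 on the y axis.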

How the data were processed

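The labels' protocols give poly(A) RNA and a stranded TruSeq kit. Per the submitters' processing notes, CASAVA 1.8.2, TopHat2, edgeR and hg19 were used. The annotation release and the use of strand in counting are not given in the sources used here. The table the authors deposited holds RPKM values of the 18 libraries for 57773 Ensembl identifiers; 52338 of these were matched to GENCODE v29. The length implied by the RPKM values lay within 0.5% of the genomic span for 87.2% of 24750 genes with over 50 reads, and multiplied back by length and divisor, every value was a whole number of reads to within 0.01. That length was the annotated one for 31114 genes; for 9739 it was a step set from the values themselves, so whole numbers follow by construction, and 16920 genes were at 0 throughout. With few reads such a step cannot be checked.

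Genes that reached 1 RPKM in at least 3 libraries were tested with limma 3.58.1 in R 4.3.3 on log2(RPKM + 0.5), with a mean for each of the 6 clones, a trend in the spread, two-sided p-values and adjustment by Benjamini-Hochberg across every gene tested. Such changes understate those of low genes. Limma-voom was run on recovered reads of genes that reached 10 reads in at least 3 libraries; it took the divisors implied by the RPKM values as library sizes and called 214 genes. Reads per M are recovered reads over that divisor, 36.1, 42.7 and 43.9 M for libraries A, B and C of 2N-3, and 43.8, 41.5 and 36.9 M for those of 2N-1. Called genes had an adjusted p under 0.05 and at least a 2-fold change; rose and fell need the p alone. Ratios carry 95% exact intervals for counting error, and a clone at 0 was set at a floor of 3 reads over its 3 libraries.

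The comparison, the gene lists and the rules were chosen with earlier results of these data known. Named genes were the called genes of largest change on each scale (2 RPKM or 300 reads in the higher clone), switched genes, up to 4 changed members and fixed defining members of each list, and the largest calls shared with 4N-3 against 4N-1; others are said to be named after their values were seen. Alternatives were the pseudocount, the filter, the scaling, library weights, the libraries in the fit and leaving out each library. Some genes are not reported here.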

Additional observations from a re-analysis of the deposited data

Results flagged for a closer look

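The change between the diploid clones and the change between 4N-3 and 4N-1 were set against each other in 1 test, and the difference was called for 178 of 9704 genes on the RPKM scale and for 1036 of 23397 on recovered reads. The values below are the log2 change of 2N-3 against 2N-1 minus that of 4N-3 against 4N-1 on reads, for genes of the text whose difference had an adjusted p below 0.05 (limma-voom) and that either passed in both comparisons with opposite signs or were named as switched or among the calls shared with 4N-3 against 4N-1. Where a clone had 0 reads the fitted value depends on the prior count and is no bound. Where both tetraploid clones had few reads, the difference rests in part on those few. NUP210 had 1, 2 and 3 reads in libraries A, B and C of 4N-1, against 9, 6 and 9 in 4N-3. AL358335.2 had 5, 3 and 3 reads in 4N-1, against 0, 0 and 2 in 4N-3, and ZNF22 was also low in both. ZNF22 and AL358335.2 reached the minimum of reads only in 2N-3, so they were tested only because that clone was high. Among genes off or nearly off in 1 diploid clone, the difference was 8.84 for CCL2, 7.70 for SLC2A10 and 7.01 for HSPB7, and it was -5.57 for HOXC8, -5.78 for HOXC6 and -5.25 for AC012531.2, which count the same reads in part. Among matrix and proteoglycan genes it was 5.48 for FMOD, 4.90 for SULF1 and -2.57 for COL1A2. Among targets of YAP/TAZ and TGF-beta and contractile genes it was 2.19 for CYR61, 2.14 for CTGF, 1.52 for TAGLN and 0.77 for TGFB1I1. Among secreted and antigen genes it was 2.43 for CXCL8, 1.60 for IL11 and 1.21 for HLA-B. It was 2.41 for HES1, 3.5 for CCND2, 1.16 for HSPA1A and 1.15 for HSPA1B. Among further genes named in the report it was 3.01 for REC8, 5.11 for ZNF22, 5.45 for ZNF334, 3.83 for HOXB7 and 3.88 for HOXB9. Of these, ZNF22 and ZNF334 missed the planned limits for switched genes, 3 or fewer reads in 1 clone and 300 or more in the other. They entered by looser limits set after their values were seen. The remaining values were 1.90 for FOXS1, 1.93 for CPEB1, 5.57 for AL358335.2, -1.16 for VAT1L, -6.02 for PHACTR1, -2.58 for NUP210 and -2.29 for LINC02360. Library A of 2N-3 enters these values; without it the RPKM count was 170.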

How the results depend on the processing

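The 12 RPKM calls became 24 at a pseudocount of 0.1, 6 at 1, 2 with the libraries of 2N-3 and 2N-1 fitted alone, 21 with array weights (411 rose, 289 fell) and 214 on recovered reads. Leaving out 1 library gave 10 to 22, the highest when C of 2N-3 was left out. Without library A of 2N-3 the 11 calls became 24 at a pseudocount of 0.1, 5 at 1, 1 with the 5 libraries fitted alone and 21 with array weights. The 214 calls on reads became 84 with the 6 libraries alone and 154 to 278 when 1 library was left out; the genes that rose and fell numbered 471 and 422 when C of 2N-3 was left out, 153 and 69 for A of 2N-1, and 158 and 66 for B of 2N-1. The 178 genes that differed between the 2N and 4N comparisons became 300 at a pseudocount of 0.1, 107 at 1 and 357 with array weights, and 1036 on reads, an alternative chosen after seeing the data; leaving out 1 library gave 129 to 267. Other filters and scalings, TMM without library A among them (also chosen after seeing the data, 177), stayed within 1.5 times. The letters A, B and C did not pair the libraries (correlations of deviations 0.119, 0.111 and 0.059); with a replicate block the calls were 13 on RPKM, 10 without library A, 198 on reads and 156 for the difference. Of the 84 named genes tested here, the 66 past the threshold kept their direction in every setting. Of these, 42 missed the threshold in at least 1 setting on either scale, 31 in at least 1 on reads, and 20 on reads without 1 library, as given beside each. Of the other 18, CDKN1A, CDK6, EGR1 and KRT18 each passed the threshold in 1 setting. For all 18, a change of sign between fits that did not pass was not counted as a reversal. Some changed sign in this way: MKI67 ran from -0.60 to 0.09 and ACTA2 from -0.15 to 0.17. The planned edgeR and DESeq2 fits were not run, since the deposited unit is RPKM, and the difference between ploidies cannot be fitted on 6 diploid libraries. At the low levels of most calls, few reads and 3 libraries a clone limit the precision.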

Other observations

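Some called genes lay within 200000 bases of each other; these were chosen after their values were seen and were not tested as groups. SERPINA5 and SERPINA3, neighbouring serine protease inhibitors on chromosome 14, were both lower in 2N-3, and AL049839.2 overlaps both. SERPINA5 had 11, 13 and 13 reads in 2N-3, against 63, 81 and 62 reads in 2N-1, and SERPINA3 had 34, 33 and 22 reads in 2N-3, against 89, 93 and 70 reads in 2N-1. WT1, a transcription factor of kidney and gonad development, had 10, 13 and 16 reads in 2N-3, against 48, 48 and 69 reads in 2N-1. WT1-AS, on the opposite strand with an overlap at its end, had 18, 29 and 17 reads in 2N-3, against 57, 46 and 55 reads in 2N-1. WT1-AS missed the threshold without library A of 2N-3 (adjusted p = 0.069). CACNG7, which encodes a subunit that accompanies glutamate receptors, had 48.5, 45.8 and 41.9 reads per M in 2N-3, against 21.0, 20.1 and 22.4 reads per M in 2N-1. For the 5 genes whose values are given here, leaving out the other libraries in turn was not run.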
